A study of Mus musculus with 16 samples.

Results

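Hearts of mice exposed to an aggressor for 2 days were compared with hearts of mice exposed for 1 day, all taken after 1 day of rest. The comparison used 8 of the 16 hearts of the series: the 4 hearts titled 2 days of stress with 1 day of rest, called T2R1, and the 4 titled 1 day of stress with 1 day of rest, called T1R1. All probes that were not array controls entered it. The mice were C57BL/6, and each array held the RNA of 1 heart. In both groups the mice spent 6 hours a day in a mesh enclosure within an aggressor's cage and were placed with an aggressor 3 to 5 times, each time until 2 min or 10 bites had been reached. T2R1 and T1R1 differed in the number of exposure days, 2 and 1. The general treatment text gives 5 or 10 days of exposure, which goes against the group titles, and the titles were followed here. The labels used here give neither the age nor the sex of the mice. The other 8 hearts, of control mice and of mice exposed for 3 days, lay on another slide. They added to the estimate of the spread between replicates and to the choice of features tested, since a probe detected throughout any of the 4 groups was kept.

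Repeated defeat by an aggressor is a model of traumatic stress in mice. It activates the adrenal glucocorticoid axis and the sympathetic nerves, and both act on the heart: the hormones enter cells and act through the glucocorticoid receptor on genes such as Fkbp5 and Tsc22d3, and the nerves act through beta-adrenergic receptors on rate, force and metabolism. A whole heart is mostly cardiac muscle by RNA, with fibroblasts that make the collagen matrix, endothelium, resident immune cells and the blood left in the chambers, so genes of each of these can differ between hearts. The arrays cannot tell fewer cells of a type from less RNA per cell.

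A 1-colour array was read for each heart, with 59305 spots that were not controls, laid out as 60-base probes for messenger RNA and for long noncoding RNA. The share of spots well above background was between 55.0% and 66.7% on the T2R1 arrays, against 46.5% to 65.6% on the T1R1 arrays, with T1R1 replicate 3 the lowest. No spot was saturated. Values are log2 brightness relative to the 75th percentile of each array, so a value of 0 is the brightness of that percentile and a step of 1 is a 2-fold step. All 8 arrays lay on 1 slide and were scanned together. T2R1 filled slide columns 1 and 2, and T1R1 columns 3 and 4, so the position along the slide and the exposure cannot be told apart, whereas both rows held 2 arrays of each group. All 16 cardiomyocyte markers tested were well above background on every array of both groups.

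Some arrays stood apart in genes of other tissues, and results that rest on them are also given without them. T1R1 replicate 1 was the highest of the 8 arrays in the adipocyte list, at 2.41 above the mean of the T1R1 arrays, and in the thymus list, at 1.44, the B cell list, at 1.25, and the T and NK cell list, at 0.73. T1R1 replicate 4 was the highest in the liver list, at 2.05. The thymus gene Dntt, which adds bases at antigen receptor joins, had a level of 1.34 in T1R1 replicate 1, while the other 7 hearts ranged over -1.75 to -1.20. Alb, serum albumin, was at 0.87, -0.45, -1.89 and -0.98 in T2R1, against -0.45, -4.09, -0.72 and 3.62 in T1R1. The brown fat gene Ucp1 was at 3.32, 1.45, 3.91 and -2.01 in T2R1, against 2.63, -1.84, -4.94 and -6.11 in T1R1, and Adipoq, the adipocyte hormone, at 1.38, 0.89, 1.12 and -1.14 in T2R1, against 2.34, -1.02, -2.01 and -0.89 in T1R1. Groups overlapped in each of these 4 genes. T1R1 replicate 1 was also the lowest in muscle stress genes, at -1.496 from the T1R1 mean: Myh7, the slow and fetal myosin heavy chain, was at 7.30, 6.84, 6.83 and 7.15 in T2R1, against 3.89, 6.86, 7.01 and 6.35 in T1R1.

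**Figure D1:**
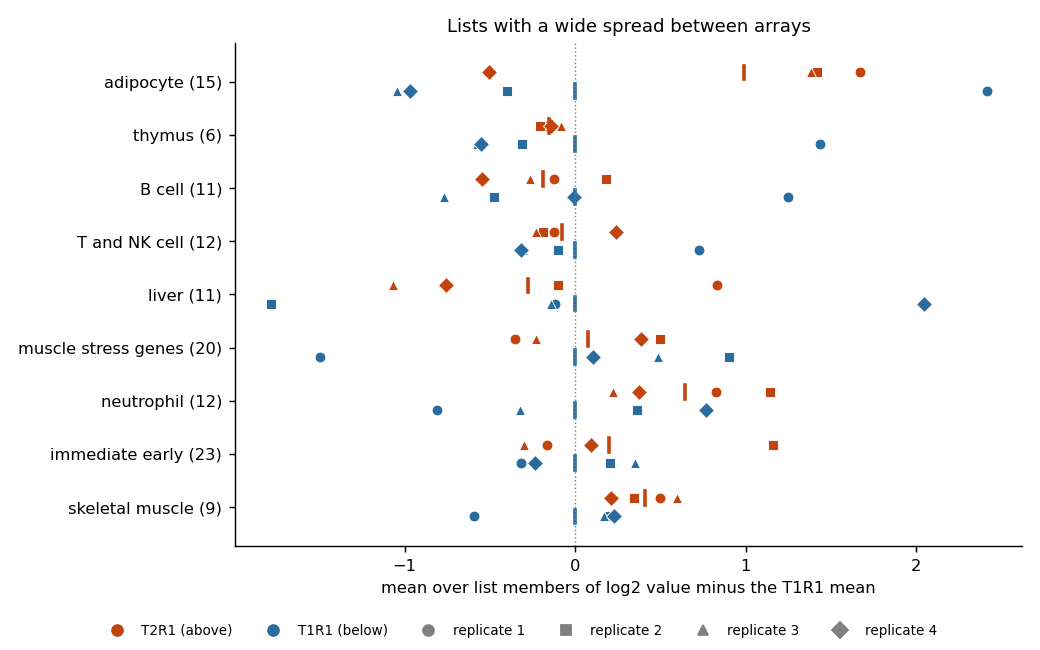
Level of 9 gene lists on each array, as the mean over list members of the log2 value minus the T1R1 mean, with T2R1 arrays above and T1R1 arrays below in each row, a symbol for each replicate number and a bar at the group mean. T1R1 replicate 1 lies at 2.41 in the adipocyte list and 1.44 in the thymus list, and T1R1 replicate 4 at 2.05 in the liver list.

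Of 22872 features tested, 0 (0%) passed an adjusted p under 0.05 between T2R1 and T1R1 hearts by limma with Benjamini-Hochberg adjustment, and the smallest adjusted p was 0.345. At an unadjusted p under 0.05 there were 1797 features, where 1144 would be due by the threshold alone: 1262 were higher in T2R1 (5.52% of those tested) and 535 were lower (2.34%). The higher ones made up 70.2%, and 86.5% under median scaling of the arrays, 59.0% with no filter on dim probes and 61.3% with the authors' deposited values. In 1159 features (5.07%) the 4 T2R1 arrays all lay above the 4 T1R1 arrays, and in 440 (1.92%) they all lay below. These percentages are the background against which the counts in each gene list are given below, and no gene is called changed. Leaving out an array can only keep or raise a count without overlap. Such counts are therefore read beside the share of all features with the same array left out. The median difference over all features was 0.05. The 95% interval of the difference lay within 2-fold either way for 19702 features (86.1%) and within 1.5-fold for 14094 (61.6%). The labels call the hearts individual samples, so the p-values rest on the spread between these hearts.

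The spread differed between the groups. The median SD over the 4 arrays was 0.143 in T2R1, against 0.204 in T1R1, and the SD was larger in T1R1 for 71.1% of features. Correlations across features were 0.989 to 0.993 among T2R1 arrays, 0.981 to 0.984 among T1R1 arrays, and 0.981 to 0.991 between the groups. T1R1 arrays 1 to 4 correlated on average at 0.987, 0.988, 0.983 and 0.985 with the T2R1 arrays, against 0.982, 0.982, 0.982 and 0.983 with the other T1R1 arrays. Features are not independent replicates, and these correlations are a description.

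**Figure D2:**
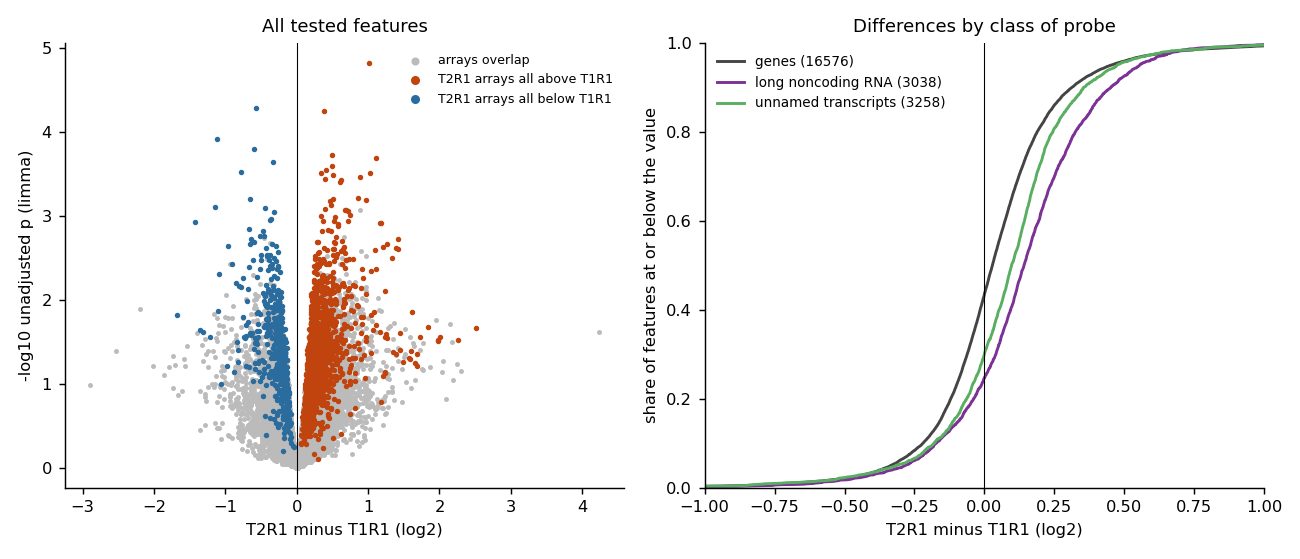
Left, the difference T2R1 minus T1R1 (log2) of each tested feature against the −log10 of its unadjusted p, with the 1159 features whose T2R1 arrays all lay above T1R1 and the 440 whose T2R1 arrays all lay below in colour. Right, the share of features at or below each difference, by class of probe: the medians were 0.03 for genes, 0.14 for long noncoding RNA and 0.10 for unnamed transcripts.

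Among named genes whose arrays did not overlap, the 8 with the smallest p on the higher side and the 8 on the lower side are given as values, since none passed adjustment. Mfap4, a microfibril protein of the matrix, stood at 3.34, 3.11, 3.34 and 2.65 in T2R1, against 2.25, 1.46, 2.04 and 2.27 in T1R1 (probe at chr11:61302147-61302206 of mm9). It averaged 3.11 ± 0.33 in T2R1 and 2.01 ± 0.38 in T1R1 (SD, n = 4 each), a difference of 1.10 ± 0.22 (SE), or 2.15-fold, with an adjusted p of 0.497 by limma. All 4 T2R1 hearts were above every T1R1 heart. Adam17, the protease that sheds tumour necrosis factor and growth factor ligands, was higher by 0.41, and its other probe by 0.36. Mknk1, a kinase that phosphorylates the cap-binding factor eIF4E, was higher by 0.34. The gene 1700120C14Rik was higher by 0.39, Pdxk-ps by 0.51, Gm10244 by 0.62 and 1600014C23Rik by 0.60. Gstcd had the smallest p of all features, but it was well above background on 2 T2R1 arrays and on no T1R1 array, and the difference could not be bounded.

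Igfbp3, which binds and stores insulin-like growth factors in the blood and tissues, was the leading gene on the lower side. It stood at -1.25, -1.02, -1.07 and -1.27 in T2R1, against -0.70, -0.40, -0.66 and -0.55 in T1R1 (probe at chr11:7106594-7106653 of mm9). The means were -1.15 ± 0.13 in T2R1 and -0.58 ± 0.14 in T1R1 (SD, n = 4 each), a difference of -0.57 ± 0.10 (SE), with an adjusted p of 0.430 by limma. Cntf, a survival factor for neurons, was at -0.18, -0.54, -0.06 and -0.35 in T2R1, against 0.54, 0.72, 0.20 and 0.56 in T1R1, a difference of -0.79, and its other probe gave -0.73. Hamp, the iron-regulating hormone hepcidin, was at 0.37, -0.54, 0.79 and 0.48 in T2R1, against 1.31, 1.28, 1.29 and 1.78 in T1R1, a difference of -1.14. Csrnp2 was lower by 0.60 in T2R1, Trp53bp2, a partner of p53, by 0.33, Gng13, a G protein gamma subunit, by 0.65, and Clp1, an RNA kinase, by 0.44. The imprinted gene Nap1l5 differed by -1.12 and was well above background on 1 T2R1 and 3 T1R1 arrays. In the list of IGF and imprinted growth genes, 22 were tested, with a median of -0.11 and 1 member above and 2 below without overlap, or 5 below without T1R1 replicate 2 (4.36% of all features). Those below in the full set were Igfbp3 and Plagl1, an imprinted zinc finger factor, at -0.43, whose other probes gave -0.36 to 0.06. Dlk1, an imprinted Notch-like ligand, differed by -0.90 with overlapping arrays.

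**Figure D3:**
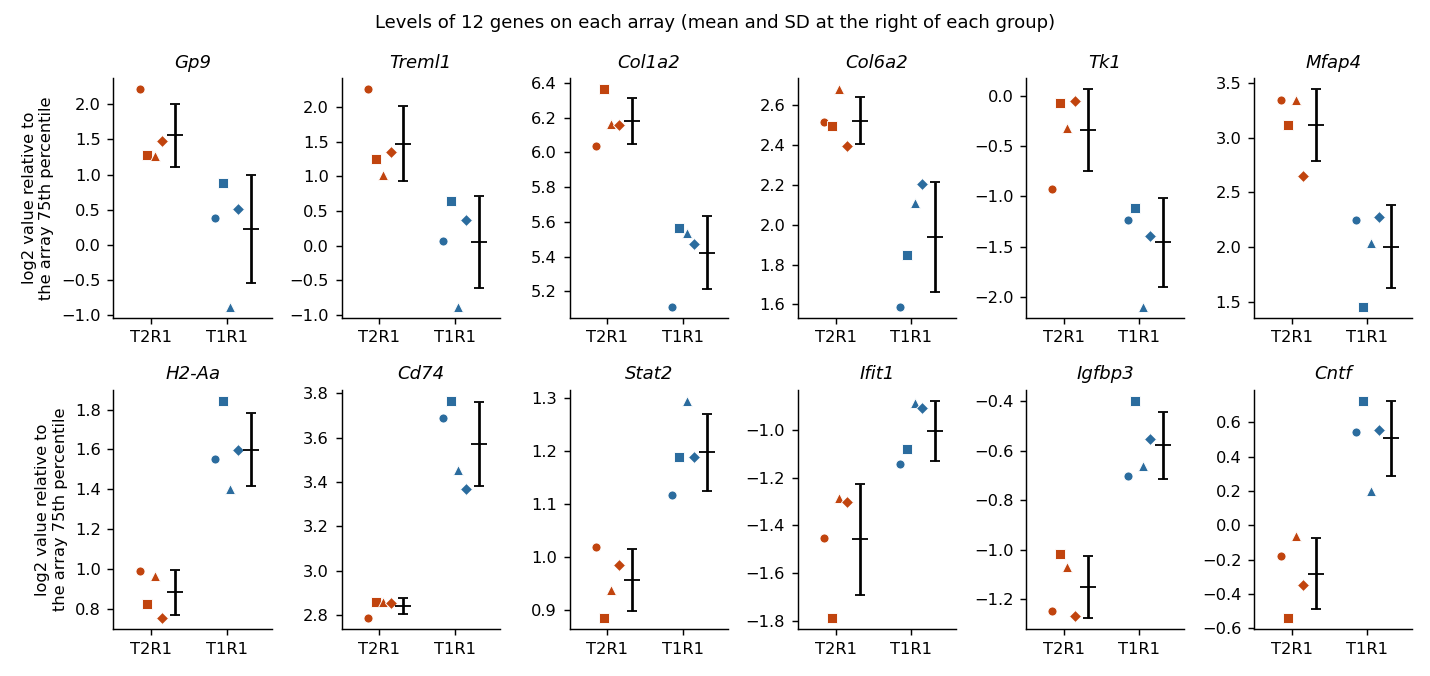
Levels of 12 genes on each array, as log2 brightness relative to the array's 75th percentile, T2R1 on the left and T1R1 on the right of each panel, with a symbol for each replicate number and the mean and SD beside each group. In every panel the 4 T2R1 arrays lie on 1 side of the 4 T1R1 arrays, and none of the 12 genes passed adjustment.

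Blood platelet genes had higher values in T2R1, with none past adjustment. Of the 12 markers tested, 6 had all T2R1 arrays above all T1R1 arrays and 0 below, 9 had an unadjusted p under 0.05, and the median difference was 0.98, against 0.05 over all features. Of the 8 well above background on all 16 arrays, 4 had no overlap (5.43% of all features so detected), with the same median. Treml1, a receptor of platelet granules, was at 2.26, 1.26, 1.02 and 1.35 in T2R1, against 0.06, 0.64, -0.88 and 0.37 in T1R1, a difference of 1.43 ± 0.38 (SE). Gp9 was at 2.22, 1.27, 1.27 and 1.48 in T2R1, against 0.39, 0.88, -0.89 and 0.50 in T1R1, a difference of 1.34 ± 0.38. Gp1ba and Gp1bb, which with Gp9 make up the receptor for von Willebrand factor, differed by 1.42 ± 0.39 and 1.18 ± 0.29. Gp1ba was well above background on 4 T2R1 and 3 T1R1 arrays. T2R1 replicate 1 was the highest array for all 4 genes and T1R1 replicate 3 the lowest. The chemokine Pf4, named after its values were seen, was at 5.09, 5.12, 4.80 and 5.02 in T2R1, against 4.68, 5.02, 4.55 and 4.69 in T1R1, a difference of 0.27 with overlapping arrays. The smallest adjusted p among the 12 was 0.634 by limma. The summed brightness of the list, in units of the array's 75th percentile, was 39.6 to 61.2 in T2R1, against 27.9 to 43.9 in T1R1. Without T2R1 replicate 3, 12 of 12 had no overlap (5.85% of all features), and without T1R1 replicate 2, 10 of 12 (10.5%). With normexp background correction the median was 0.64.

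Promoters of 2 of these receptor subunits are shown because the von Willebrand receptor genes lay on the same side of T1R1 together. Both promoters hold the letters marked below. They are RefSeq sequences of build GRCm38.p6, from 250 bases before to 50 bases after the gene start, read 5′ to 3′ along the gene. Capitals mark GATAAG or its reverse CTTATC, the letters bound by GATA factors of the megakaryocyte and erythroid lineages. Gp9 lies at chr6:87777820-87778119, plus strand, and Gp1ba at chr11:70638872-70639171, plus strand. For a gene with several promoters listed, here and in the later promoter passages, the promoter with the most matches is shown.
Gp9: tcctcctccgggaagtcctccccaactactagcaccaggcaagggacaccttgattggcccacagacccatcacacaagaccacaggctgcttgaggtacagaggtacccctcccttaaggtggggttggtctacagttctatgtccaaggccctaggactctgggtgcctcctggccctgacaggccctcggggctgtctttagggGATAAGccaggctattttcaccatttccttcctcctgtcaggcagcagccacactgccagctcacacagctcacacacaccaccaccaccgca
Gp1ba: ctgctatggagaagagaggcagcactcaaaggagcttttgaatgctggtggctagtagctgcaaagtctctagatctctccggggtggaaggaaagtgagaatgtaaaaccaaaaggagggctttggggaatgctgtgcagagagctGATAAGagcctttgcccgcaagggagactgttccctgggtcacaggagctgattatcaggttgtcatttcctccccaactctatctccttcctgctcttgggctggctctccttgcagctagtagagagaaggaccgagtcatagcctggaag
Of 11 platelet genes with a promoter in the table, 4 held these letters on either strand, and of 6 erythroid genes 2 did, against 8.59% of all 27025 genes.

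Erythroid genes stood beside the platelet genes. Of 10 tested, 2 had T2R1 arrays all above T1R1 and 0 all below, with a median of 0.50. Tfrc, the transferrin receptor through which cells take up iron, was at 2.60, 2.98, 2.59 and 2.68 in T2R1, against 2.21, 2.33, 1.66 and 2.58 in T1R1. Ahsp, the chaperone of alpha globin, was at 0.49, 0.22, 0.04 and -0.20 in T2R1, against -2.89, -0.48, -2.33 and -1.76 in T1R1, a difference of 2.00 ± 0.82 (SE) with an adjusted p of 0.634 by limma. The globin genes overlapped: Hba-a1 was at 9.93, 9.67, 9.77 and 9.95 in T2R1, against 9.29, 10.30, 8.89 and 9.02 in T1R1, and Hbb-bt differed by 0.58. These globin probes may also read near-identical copies. T1R1 replicate 2 had the highest globin values, and without it 7 of 10 erythroid genes had no overlap (10.5% of all features), with a median of 0.81, and without T1R1 replicate 3 the median was 0.28. Slc4a1, the red cell anion exchanger, differed by 1.35 with overlap.

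**Figure D4:**
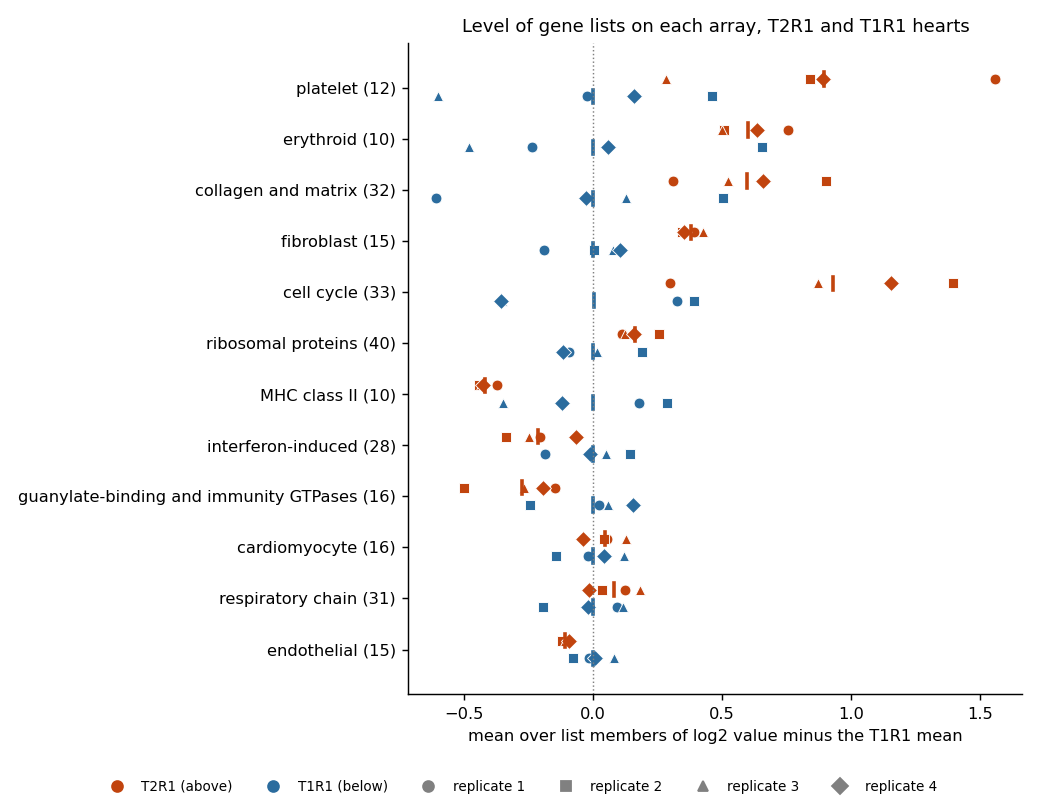
Level of 12 gene lists on each array, as the mean over members of the log2 value minus the T1R1 mean, with the number of members tested in brackets, T2R1 arrays above and T1R1 arrays below in each row and a bar at the group mean. The 4 T2R1 arrays lie above the 4 T1R1 arrays in the fibroblast list and below them in the MHC class II and endothelial lists, and overlap them in the others.

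Collagen and matrix genes were higher in T2R1 in all 32 members tested as point values, with a median of 0.52, and 9 of the 32 had no overlap, all above. Col1a1, a chain of the main fibrillar collagen, was at 4.58, 4.92, 4.80 and 4.61 in T2R1, against 3.099, 4.02, 3.82 and 3.67 in T1R1. Its difference was 1.07 ± 0.42 (SE), or 2.11-fold. Col1a2, the partner chain, was at 6.04, 6.36, 6.16 and 6.16 in T2R1, against 5.11, 5.56, 5.54 and 5.47 in T1R1, a difference of 0.76 ± 0.29. The 2 groups were apart in both chains, with T1R1 replicate 1 the lowest. Col6a2 and Col6a1, chains of the beaded-filament collagen around cells, differed by 0.58 ± 0.19 and 0.50 ± 0.19, and the other Col6a2 probe by 0.31. Col12a1 had a difference of 1.95, with T2R1 replicate 3 at -0.05, the other T2R1 arrays at -3.19 to -2.41 and the T1R1 arrays at -4.80 to -2.97. Adjusted p-values by limma were 0.634 or above for the whole list. Without T1R1 replicate 1 the median of the list was 0.33. The count with no overlap, which cannot fall, stayed at 9 of 32, while the share of all features above rose from 5.07% to 9.78%. Without T1R1 replicate 2, 18 of 32 had none (10.5%).

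Fibroblast markers, which share Col1a1, Col1a2, Col3a1 and Postn with the matrix list, had 6 of 15 members without overlap, all above, with a median of 0.31. The list level was 0.34 to 0.43 on the T2R1 arrays, against -0.19 to 0.10 on the T1R1 arrays. Col3a1, the fibrillar collagen of soft tissue, was at 5.23, 5.29, 5.18 and 5.06 in T2R1, against 3.25, 4.50, 4.07 and 3.93 in T1R1, a difference of 1.26 ± 0.50 (SE). Pi16, a marker of adventitial fibroblasts, was at 5.41, 4.96, 5.29 and 4.94 in T2R1, against 4.63, 4.11, 4.79 and 4.86 in T1R1, a difference of 0.55. Postn, a matricellular protein of activated fibroblasts that was named after its values were seen, was at 2.77 to 3.46 in T2R1, against 0.92 to 2.24 in T1R1, a difference of 1.21. Of the 15 members, 10 were above 0 and 5 below. With every probe taken on its own the median was 0.10. In the TGF beta list of 26 genes, a pathway that drives matrix genes, the median was -0.12, with 1 member above and 2 below without overlap, or 4 below without T1R1 replicate 4 (3.13% of all features). Bmp4, a ligand of the bone morphogenetic branch, was at 1.45, 1.31, 1.68 and 1.45 in T2R1, against 1.79, 1.73, 1.82 and 1.79 in T1R1, a difference of -0.31. The secreted protein Scube3 was well above background on 3 T2R1 arrays and on no T1R1 array, which gives a bound of at least 1.04-fold higher in T2R1, with an adjusted p of 0.634 by limma. Such a bound sets the T2R1 mean against the dimmest signal well above background on each T1R1 array. The atrial ligand Bmp10 differed by -0.74 with overlapping arrays.

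Cell cycle genes had point values above 0 in 33 of 33 members tested, with a median of 0.94 and 7 of the 33 without overlap. Members detected in only some groups were among them. Of the 22 well above background on all 16 arrays, 4 had no overlap (5.43% of all features so detected), with a median of 0.77. Tk1, the thymidine kinase of S phase, was at -0.92, -0.07, -0.32 and -0.05 in T2R1, against -1.23, -1.11, -2.10 and -1.39 in T1R1, a difference of 1.12 ± 0.43 (SE), and its other probe gave 0.95. Mki67, the proliferation antigen, was at -0.44, 0.99, 0.45 and 0.73 in T2R1, against -0.25, -0.98, -1.64 and -1.98 in T1R1, so T2R1 replicate 1 lay below T1R1 replicate 1. Birc5, a survivin of the mitotic spindle, differed by 1.69 without overlap. Cdk1, the mitotic kinase, differed by 2.26, was well above background on 2 T1R1 arrays and had no value on T1R1 replicate 2, which the fit left out. Their smallest adjusted p was 0.634 by limma. T2R1 replicate 1 was the lowest T2R1 array of the list, at 0.30, against 0.33 and 0.39 on T1R1 replicates 1 and 2. Without T2R1 replicate 1, 17 of 33 had no overlap (8.26% of all features), and without T1R1 replicate 1 or replicate 2, 13 or 11 had none (9.78% or 10.5%). Normexp background correction gave a median of 0.50. In the list of replication-dependent histone genes, whose copies are alike and whose probes may read more than 1 gene, 15 were tested, with a median of 0.25 and 0 without overlap. Without T2R1 replicate 1, 7 of 15 lay above without overlap (8.26% of all features), and without T1R1 replicate 1, 5 of 15 did (9.78%).

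Ribosomal protein genes differed little in size. All 40 had point values above 0, with a median of 0.16, and 6 had no overlap. Rps13 was at 7.45, 7.55, 7.47 and 7.49 in T2R1, against 7.34, 7.19, 7.30 and 7.28 in T1R1, a difference of 0.22 ± 0.07 (SE). Rps20 differed by 0.23 ± 0.08. The values changed with the scaling: with quantile normalization the median was 0.04 and with the authors' deposited values 0.0056, and 0 of the 40 were then without overlap. Without T1R1 replicate 2, 31 of 40 had no overlap, where 10.5% of all features did.

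Genes of MHC class II antigen presentation had lower values in T2R1, with none past adjustment. These genes, transcribed together in antigen-presenting cells, encode the alpha and beta chains that show peptides to helper T cells and the proteins that load them. Of 10 tested, 5 had all T2R1 arrays below all T1R1 arrays and 0 above, and the median was -0.54. H2-Aa was at 0.99, 0.82, 0.97 and 0.75 in T2R1, against 1.55, 1.85, 1.40 and 1.598 in T1R1, a difference of -0.72 ± 0.29 (SE). H2-Ab1, its partner chain, was at 4.46, 4.44, 4.70 and 4.34 in T2R1, against 5.33, 5.64, 4.97 and 4.99 in T1R1, and its second probe gave -0.69. Cd74, the invariant chain that occupies the groove until a peptide is loaded, was at 2.79, 2.86, 2.86 and 2.85 in T2R1, against 3.69, 3.77, 3.46 and 3.37 in T1R1, a difference of -0.73 ± 0.30. H2-DMa, which exchanges that chain for peptide, differed by -0.64, and H2-Eb1, a beta chain named after its values were seen, by -0.53. Fold changes, T2R1 over T1R1, were 0.608 for H2-Aa, 0.596 for H2-Ab1 and 0.603 for Cd74, with an adjusted p of 0.634 for each by limma. The 4 T2R1 hearts lay close together, with list levels of -0.44 to -0.37, against -0.35 to 0.29 in T1R1. Leaving out an array cannot lower this count. Each array left out in turn gave 5 or 6 of 10 without overlap, beside 2.54% to 4.36% of all features. Of markers of cells that carry these genes, 0 of 15 macrophage and 0 of 11 B cell markers were without overlap, with medians of 0.02 and -0.15. Without T1R1 replicate 1 the B cell median was 0.17, with 1 member above (9.78% of all features). Their summed brightness was 72.7 to 88.4 in T2R1, against 70.6 to 83.9 in T1R1, for macrophage markers and 3.36 to 5.19 in T2R1, against 3.42 to 12.01 in T1R1, for B cell markers. Their part in the class II values was not tested.

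The promoters of H2-Aa and H2-Eb1 are shown because both genes had T2R1 arrays below T1R1. Capitals mark ATTGG or its reverse CCAAT, the letters of the Y box bound by NF-Y in class II promoters. H2-Aa lies at chr17:34287774-34288073, minus strand, and H2-Eb1 at chr17:34305617-34305916, plus strand (RefSeq, GRCm38.p6).
H2-Aa: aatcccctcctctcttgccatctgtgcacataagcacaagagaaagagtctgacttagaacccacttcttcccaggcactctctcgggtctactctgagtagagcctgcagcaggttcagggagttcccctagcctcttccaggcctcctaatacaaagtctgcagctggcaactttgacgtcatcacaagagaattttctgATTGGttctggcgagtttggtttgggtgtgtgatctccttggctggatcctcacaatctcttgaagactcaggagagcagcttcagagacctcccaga
H2-Eb1: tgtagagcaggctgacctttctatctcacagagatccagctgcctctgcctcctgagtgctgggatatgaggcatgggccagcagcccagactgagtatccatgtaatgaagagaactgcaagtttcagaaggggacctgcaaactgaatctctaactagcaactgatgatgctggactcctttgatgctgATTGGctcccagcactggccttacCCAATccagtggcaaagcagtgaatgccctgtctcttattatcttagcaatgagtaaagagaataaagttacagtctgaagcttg
Of 7 class II genes with a promoter in the table, 6 held these letters on either strand, against 41.1% of all genes, so the letters are common.

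Interferon-induced genes had lower values in T2R1 by small amounts, with none past adjustment. Of 28 tested, 10 had T2R1 arrays all below T1R1 arrays and 0 all above, with a median of -0.25, and 24 were below 0. Irf1, a transcription factor of the interferon response, was at 2.77, 2.83, 2.64 and 2.73 in T2R1, against 2.98, 2.94, 2.87 and 3.03 in T1R1, a difference of -0.21 ± 0.07 (SE). Stat2, which carries the type I interferon signal to the nucleus, was at 1.02, 0.88, 0.94 and 0.98 in T2R1, against 1.12, 1.19, 1.29 and 1.19 in T1R1, a difference of -0.24 ± 0.10. Ifit1, which binds uncapped viral RNA, was at -1.45, -1.79, -1.29 and -1.30 in T2R1, against -1.14, -1.08, -0.88 and -0.91 in T1R1, a difference of -0.46 ± 0.22. Mx2, a dynamin-like antiviral GTPase, differed by -0.54. The smallest adjusted p of the list was 0.634 by limma. The count depended on the scaling: under median scaling of the arrays, 5 of 28 were without overlap (0.665% of all features), and without T1R1 replicates 1 and 4 together 19 were (8.001%).

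Guanylate-binding proteins and immunity-related GTPases, large GTPases that interferon gamma turns on, had 3 of 16 members below without overlap and 0 above, with a median of -0.26. Of the 16, 6 had an unadjusted p under 0.05, all lower. Gbp7 was at -0.83, -1.21, -1.002 and -0.87 in T2R1, against -0.46, -0.96, -0.32 and -0.41 in T1R1, so T1R1 replicate 2 lay within the T2R1 arrays. Its difference was -0.44 ± 0.14 (SE), and those of Gbp4 and Gbp2 were -0.47 and -0.33, also with overlap. Iigp1, a GTPase that attacks the vacuoles of parasites, was at 0.15, -0.12, -0.09 and -0.12 in T2R1, against 0.19, 0.29, 0.38 and 0.47 in T1R1, a difference of -0.38 without overlap. Irgm1, a regulator of that family named after its values were seen, was at 1.26, 0.98, 1.20 and 1.23 in T2R1, against 1.29, 1.36, 1.38 and 1.51 in T1R1. Leaving out T1R1 replicate 2, 9 of 16 had no overlap (4.36% of all features). Under median scaling 0 of the 16 were apart.

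The promoters of Ifit1, Stat2 and Irgm1 are shown because all 3 genes had T2R1 arrays below T1R1. Capitals mark the core of the interferon-stimulated response element, bound by Stat and Irf factors: GAAA, any 2 bases and GAAA, or the reverse, TTTC, any 2 bases and TTTC. Ifit1 lies at chr19:34640639-34640938, plus strand, Stat2 at chr10:128270248-128270547, plus strand, and Irgm1 at chr11:48871371-48871670, minus strand (RefSeq, GRCm38.p6).
Ifit1: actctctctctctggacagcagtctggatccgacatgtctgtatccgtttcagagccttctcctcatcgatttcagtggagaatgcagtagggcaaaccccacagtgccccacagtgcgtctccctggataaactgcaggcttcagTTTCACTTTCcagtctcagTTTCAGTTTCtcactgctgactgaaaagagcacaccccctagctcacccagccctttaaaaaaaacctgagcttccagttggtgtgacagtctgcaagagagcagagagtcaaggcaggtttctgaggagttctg
Stat2: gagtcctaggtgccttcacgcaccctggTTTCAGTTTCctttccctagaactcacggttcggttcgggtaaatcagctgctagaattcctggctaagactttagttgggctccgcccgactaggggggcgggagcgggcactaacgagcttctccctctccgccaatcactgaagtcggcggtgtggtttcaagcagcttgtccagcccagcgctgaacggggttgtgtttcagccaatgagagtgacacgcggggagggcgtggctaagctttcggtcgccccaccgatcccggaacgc
Irgm1: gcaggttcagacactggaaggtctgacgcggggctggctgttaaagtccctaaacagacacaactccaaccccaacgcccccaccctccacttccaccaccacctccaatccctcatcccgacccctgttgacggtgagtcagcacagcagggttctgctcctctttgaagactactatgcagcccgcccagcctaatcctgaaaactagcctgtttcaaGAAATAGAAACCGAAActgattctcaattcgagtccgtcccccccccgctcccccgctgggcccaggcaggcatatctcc
The 2 matches in Irgm1 overlap each other, and those in Ifit1 do not. Of 20 interferon-induced genes with a promoter in the table, 10 held these letters on either strand, and of 9 GTPase genes 9 did, against 3.99% of all genes.

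Neutrophil genes varied from heart to heart. Of 12 tested, 11 were above 0, with a median of 0.35, and 1 had no overlap. Leaving out T1R1 replicate 4, 3 of 12 lay above without overlap (6.9998% of all features). The gene apart on all 8 arrays, Elane, the neutrophil elastase, was at 1.70, 1.61, 2.03 and 1.88 in T2R1, against 1.45, 1.49, 1.33 and 1.33 in T1R1, a difference of 0.41. The calprotectin genes overlapped: S100a8 was at 2.47, 3.12, 0.85 and 0.82 in T2R1, against -1.22, 1.13, -0.15 and 2.14 in T1R1, and S100a9 differed by 1.14. Retnlg, a resistin-like neutrophil gene, differed by 2.15 with overlap, and Lcn2, the iron-scavenging lipocalin, by 0.58, where T1R1 replicate 1 stood alone at 0.99 and the other 7 arrays at 3.101 or higher. T cell gene Cd247 differed by 0.19.

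The arrays of T2R1 and T1R1 overlapped in all genes tested of the glucocorticoid and clock lists. Of 28 glucocorticoid response genes, 0 were without overlap, with a median of 0.16, and 2 had an unadjusted p under 0.05. These 2 were Mt1, a metallothionein, at 0.54 and Sgk1, a kinase that hormone induces, at 0.48. Without T2R1 replicate 4, 6 of 28 lay above without overlap (7.37% of all features), with a median of 0.26. Fkbp5, the receptor's own feedback chaperone, was at 1.70, 1.67, 1.51 and 1.26 in T2R1, against 1.40, 1.52, 1.23 and 1.21 in T1R1, a difference of 0.19 with a 95% interval of -0.13 to 0.51. Tsc22d3 differed by 0.02 (-0.36 to 0.40) and Tat by 0.15 (-0.36 to 0.65). Of 17 clock loop genes and 14 clock output genes, 0 were without overlap, and the medians were -0.05 and 0.02. The clock activator Arntl was at -2.15, -2.30, -2.58 and -2.56 in T2R1, against -1.81, -2.03, -2.37 and -1.48 in T1R1, a difference of -0.47 ± 0.27 (SE). Its repressors Per1, Per2, Cry1 and Ciart differed by 0.29, -0.63, -0.20 and 0.50, Nr1d1 by -0.11, and the output factor Dbp by 0.31. The second Per1 probe gave -0.08. The low Per2 mean in T2R1 came from replicate 3, at -3.06, with the other T2R1 arrays at -0.87 to -0.72.

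The immediate early list of 23 genes had 0 without overlap and a median of 0.19, with T2R1 replicate 2 at 1.16 and every other array at 0.35 or lower. Without T2R1 replicate 2 the median was -0.09, with 1 member below (2.87% of all features). Fosb, a partner in the AP-1 factor, differed by 0.53 with overlap. Hspa1a, the stress-induced chaperone, was at -0.16, 2.46, 0.51 and 1.51 in T2R1, against 1.56, 1.33, 1.94 and -0.30 in T1R1, a difference of -0.05. Of 25 heat shock genes 2 were without overlap, both above: the mitochondrial chaperonin pair Hspd1, at 0.20, and Hspe1, at 0.21. Cyp1a1, the target of the aryl hydrocarbon receptor, was well above background on no T2R1 array and on T1R1 replicate 4 alone. The other T1R1 arrays were at -5.07 to -4.66, and no fold is given. Crhbp, which binds corticotropin-releasing hormone, differed by -0.28.

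Cardiomyocyte markers had a median of 0.08 over 16 genes, with 0 without overlap and a range of -0.17 to 0.28. Respiratory chain genes had a median of 0.09 over 31 genes, fatty acid oxidation genes -0.04 over 30 and calcium handling genes 0.03 over 20. The cardiomyocyte, respiratory chain and calcium handling medians had the opposite sign with quantile normalization, at -0.06, -0.05 and -0.03, and with the authors' deposited values, at -0.07, -0.06 and -0.02. Nppa and Nppb, the natriuretic peptides, differed by 0.20 (-0.15 to 0.55) and 0.27 (-0.77 to 1.32). Nppb had a level of 5.18 in T1R1 replicate 1, while the other 7 hearts ranged over 6.80 to 7.71, and without T1R1 replicate 1 its difference was -0.33. Pdk4, the kinase that shuts off pyruvate oxidation, differed by 0.08 (-0.80 to 0.96), and Ucp3, a mitochondrial carrier tied to fatty acid use, by -0.23 with 1 array of T1R1 overlapping T2R1. Muscle stress genes had a median of 0.04 over 20 genes with 0 without overlap. Without T1R1 replicate 1 the median was -0.38, with 3 members below (4.12% of all features). Without T1R1 replicates 1 and 4 together it was -0.49, with 7 below (8.001%). In the full set the gene with the smallest p was Mybpc2, a myosin-binding protein of fast muscle, at 0.73. Skeletal muscle markers had a median of 0.41 over 9 genes with 1 without overlap, and a median of 0.3 without T1R1 replicate 1. Atrial markers had a median of -0.20 over 13 genes and 0 without overlap, and their smallest p belonged to Hey1, a Notch target, at -0.34. Endothelial markers had 13 of 15 below 0, a median of -0.08 and 1 without overlap, Tek, the angiopoietin receptor, at -0.36. Without T2R1 replicate 4, 3 endothelial markers lay below without overlap (3.02% of all features). The count also changed with the scaling. With quantile normalization 2 lay below (2.37%), with a median of -0.14, and with the deposited values 4 (2.67%), with a median of -0.16. Pecam1, an endothelial junction protein, differed by -0.22.

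Adipocyte genes had point values above 0 in 14 of 15 members, with a median of 0.75 and 0 without overlap. Cidea, a lipid droplet protein of brown fat, was at 5.52, 5.50, 5.60 and 5.17 in T2R1, against 5.21, 4.72, 4.37 and 5.07 in T1R1. The summed brightness of the list was 76.9 to 139 in T2R1, against 59.6 to 220 in T1R1, and its level was high on T2R1 replicates 1 to 3 and T1R1 replicate 1. Without T1R1 replicate 1 the median was 1.83, and 4 of 15 lay above without overlap (9.78% of all features). On T1R1 replicates 2, 3 and 4, however, 13, 8 and 11 of the 15 were well above background. Low values of the others there are not measured levels. Of the 8 well above background on all 16 arrays, 0 had no overlap in the full set (5.43% of all features so detected lay above), with a median of 0.72. Thymus, B cell, T and NK cell and liver markers had 0 members without overlap among 6, 11, 12 and 11 tested. The thymus median was -0.09, and 0.22 without T1R1 replicate 1, and the liver median was -0.20, and 0.51 without T1R1 replicate 4. The T and NK cell median was 0.01, and 0.14 without T1R1 replicate 1, with 2 of 12 then above without overlap (9.78% of all features). The other 25 gene lists together held 452 tested genes, of which 15 (3.32%) were above and 9 (1.99%) below without overlap, with list medians of -0.34 to 0.13.

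Long noncoding RNA leaned to the higher side. These probes cover transcribed regions that the array names by their mm9 coordinates. Of 3038 tested, 255 (8.39%) had T2R1 arrays all above T1R1 and 21 (0.691%) all below, against 4.29% and 2.33% of 16576 genes. The median difference was 0.14 for long noncoding RNA, 0.10 for 3258 unnamed transcripts and 0.03 for genes. Among probes well above background on all 16 arrays the percentages were 10.1 and 0.784 for long noncoding RNA and 4.52 and 2.66 for genes, with medians of 0.13 and 0.02. The noncoding median stayed between 0.08 and 0.19 under every setting tried. The difference between the 2 classes has no test, since probes of 1 array share its RNA and labelling.

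The probes of 4 long noncoding RNA regions are shown, those of smallest p on the higher side among regions with no second probe tested, in lower case as the array's 60-base probe reads 5′ to 3′, since these regions have no gene symbol in the files. The region at chrX:155947587-155947977, with its probe at chrX:155947899-155947958, minus strand, stood at -2.40, -2.41, -2.20 and -2.56 in T2R1, against -2.85, -3.81, -3.39 and -3.04 in T1R1, a difference of 0.88 ± 0.19 (SE) with an adjusted p of 0.497 by limma. The region at chr3:36299456-36299851, with its probe at chr3:36299698-36299757, plus strand, stood at -0.25, -0.20, -0.26 and -0.05 in T2R1, against -0.48, -0.62, -0.77 and -0.47 in T1R1, a difference of 0.39 ± 0.08. The regions on chromosomes X, 15 and 5 were dimmer than the region on chromosome 3. They were well above background on 3, 2 and 3 of the T1R1 arrays and on all 4 T2R1 arrays. The regions on chromosomes 15 and 5 differed by 0.70 and 0.71. Their probes lie at chr15:85301458-85301517, plus strand, and at chr5:77204015-77204074, plus strand.
chrX:155947587-155947977_R: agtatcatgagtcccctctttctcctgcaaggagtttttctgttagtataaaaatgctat
chr3:36299456-36299851_F: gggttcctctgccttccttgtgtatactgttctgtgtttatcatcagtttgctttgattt
chr15:85300937-85301522_F: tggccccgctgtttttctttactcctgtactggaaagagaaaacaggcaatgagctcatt
chr5:77188300-77205150_F: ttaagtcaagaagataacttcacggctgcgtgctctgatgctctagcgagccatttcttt
A region at chr11:95644899-95658549 differed by 0.48, but its other probes gave -0.17 to 0.25. On the lower side, the region of smallest p differed by -1.43 and was well above background on 2 T2R1 and 4 T1R1 arrays. The regions at chr14:77036103-77036386 and chr8:27129927-27137444 differed by -0.75 and -0.43. The region at chr8:27133090-27133734 differed by -0.64 by one probe and 0.46 by another, so its probes disagreed.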

How the data were processed

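RNA of 16 mouse hearts was read on 1-colour Agilent arrays. The deposited values used are the intensity gProcessedSignal, background-subtracted by Feature Extraction 10.7.3.1 per the file headers. The authors' deposited table of log2 values served as an alternative, and the sources used here do not name its normalization. Groups and replicate numbers came from the sample titles. Each array's log2 intensity was taken relative to its 75th percentile, and control spots and outlier spots were left out. The 31386 probes tested were those detected (flagged well above background) throughout some group of 4 arrays. The probe of highest mean stood for each of 22872 features. limma 3.58.1 in R 4.3.3 fitted all 4 groups together, with Benjamini-Hochberg adjustment over all features and a threshold of 0.05, and was tested on simulated data. The number of arrays limits the precision.

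The members and gene lists were chosen with earlier results of these data known. Named were 8 genes in each direction without overlap by smallest p, up to 4 members of each list by smallest p, and a fixed panel. Pf4, Postn, H2-Eb1 and Irgm1 fell outside that rule. Alternatives were normexp, quantile and median scaling, the deposited table, other filters, 8 arrays only, array weights, an intensity trend, a replicate block, each array left out, and, chosen after seeing the data, a slide row block and 2 arrays left out. Replicate numbers did not pair the samples: same-numbered deviations correlated at 0.10, 0.19, -0.02 and -0.07.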

Additional observations from a re-analysis of the deposited data

Results flagged for a closer look

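Of 277 sets of 4 arrays tested, 19 (6.86%) held 1 array whose gap to the nearest other exceeded Dixon's critical value as a share of the range. Chance gives about 1 in 20 for a single set not chosen by its values. The 277 sets share the same arrays, and many of their genes were chosen from these data, so the 6.86% cannot be set against that rate. Of the 19, 9 were in T2R1, 4 of them from replicate 4, and 10 in T1R1, 5 of them from replicate 1 and 3 from replicate 4. No cause was tested. Adam17 stood at -1.77 on T2R1 replicate 4, above the other T2R1 arrays at -2.03 to -1.995. Cd74 stood at 2.79 on T2R1 replicate 1, below the other T2R1 arrays at 2.85 to 2.86. Iigp1 stood at 0.15 on T2R1 replicate 1, above the other T2R1 arrays at -0.12 to -0.09. Per2 stood at -3.06 on T2R1 replicate 3, below the other T2R1 arrays at -0.87 to -0.72. Plagl1 stood at 1.14 on T2R1 replicate 4, below the other T2R1 arrays at 1.34 to 1.37. The region chr11:95644899-95658549 stood at -0.61 on T2R1 replicate 2, below the other T2R1 arrays at -0.18 to -0.12. The region chr5:77188300-77205150 stood at -1.996 on T2R1 replicate 3, above the other T2R1 arrays at -2.64 to -2.53. The list level of adipocyte markers stood at -0.51 on T2R1 replicate 4, below the other T2R1 arrays at 1.38 to 1.67. The list level of IGF and imprinted growth genes stood at -0.17 on T2R1 replicate 4, below the other T2R1 arrays at -0.04 to -0.02. Mknk1 stood at -0.33 on T1R1 replicate 1, below the other T1R1 arrays at -0.18 to -0.16. Pdxk-ps stood at -3.05 on T1R1 replicate 4, above the other T1R1 arrays at -3.43 to -3.42. Hamp stood at 1.78 on T1R1 replicate 4, above the other T1R1 arrays at 1.28 to 1.31. H2-DMa stood at 0.22 on T1R1 replicate 2, above the other T1R1 arrays at -0.35 to -0.26. Mx2 stood at -0.99 on T1R1 replicate 3, above the other T1R1 arrays at -1.95 to -1.89. Dntt stood at 1.34 on T1R1 replicate 1, above the other T1R1 arrays at -1.74 to -1.42. Nppb stood at 5.18 on T1R1 replicate 1, below the other T1R1 arrays at 7.48 to 7.71. Cyp1a1 stood at -1.47 on T1R1 replicate 4, above the other T1R1 arrays at -5.07 to -4.66. The list level of thymus markers stood at 1.44 on T1R1 replicate 1, above the other T1R1 arrays at -0.58 to -0.31. The list level of skeletal muscle markers stood at -0.60 on T1R1 replicate 1, below the other T1R1 arrays at 0.17 to 0.23.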

How the results depend on the processing

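No feature passed an adjusted p under 0.05 by limma under any alternative tried. The medians of the 9 leading lists, from platelet to GTPase genes, kept their sign in each. Those of other lists, such as atrial muscle, adipocyte and TGF beta genes, did so too. The alternatives reuse the same arrays, so keeping the sign does not set the 9 lists apart. Features at an unadjusted p under 0.05 numbered 1797, against 2805 without control replicate 1, 3093 with array weights, and 1108 (without T2R1 replicate 3) to 2204 when single arrays were left out. With the replicate block they numbered 2178, and the block changed no call. Scaling each array to its median left 152 features with all T2R1 arrays below T1R1, against 440, since it moved the median of all features to 0.10, and the share of unadjusted calls that were higher was then 86.5%, against 70.2%. It was 59.0% with no filter and 61.3% with the deposited values. Signs turned in genes near 0 or resting on 1 array. When single arrays were left out, Lcn2 ranged from -0.037 (without T1R1 replicate 1) to 0.89, Tsc22d3 from -0.11 to 0.20, Tat from -0.036 (without T1R1 replicate 2) to 0.43, Dntt from -0.86 to 0.17 (without T1R1 replicate 1), Alb from -1.43 to 1.14 (without T1R1 replicate 4), Nppb from -0.33 (without T1R1 replicate 1) to 0.52, Pdk4 from -0.14 to 0.28 and Hspa1a from -0.53 to 0.36. Tsc22d3 was -0.043 by quantile normalization, and in the deposited values Tsc22d3, Nppa and Pdk4 were -0.031, -0.016 and -0.027. Leaving out T1R1 replicates 1 and 4 together gave 0.26 for Dntt, 1.79 for Alb, -0.34 for Nppb and -0.38 for Pdk4. Hspa1a was 0.10 with array weights. Beyond the arrays named, the cause was not tested.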
